A study of Mus musculus with 37 samples.

Results

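The 10 genes described here are immediate early genes of the mouse: Fos, Fosb, Jun, Junb, Egr1, Klf6, Atf3, Nr4a1, Ier2 and Dusp1. They were chosen by name, as 10 of the 56351 genes in the deposited count table, and all 10 were found there. They were followed across 11 lymph node sites, spleen and 1 isotype control library. All mice carried the genotype CD169 Cre KI/KI with Rpl22HA homozygous, so no group lacked either allele, and the labels give no treatment, age or strain. Cre expressed from the locus of CD169 (Siglec1), a lectin of the macrophages in lymph node sinuses, activates a haemagglutinin-tagged copy of the ribosomal protein Rpl22, and an antibody against the tag pulls down ribosomes with their mRNA. The series text states that the tagged allele was activated in all tissues, while the labels give the cells as CD169 macrophages. The sites were 4 gut sites (duodenal, jejunal, ileal and ceco-colonic), the celiac and liver nodes, the deep cervical and super cervical nodes, and the mediastinal (lung), iliac and inguinal nodes, and each site and spleen had 3 libraries. The isotype control came from jejunal node. The titles name the spleen, although the tissue label of those libraries reads lymph node.

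Immediate early genes are transcribed within minutes of a stimulus from factors that are already present in the cell, without new protein synthesis, and their mRNAs are short-lived. Growth factors, cytokines, shear stress and heat act on them through the MAP kinases, the serum response factor with its Elk partners, and CREB. Tissue dissociation and handling are also known to induce them.

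The 36 pull-down libraries differed 312-fold in total counts. The 22 libraries with 1000000 counts or more held 1165387 to 69139450 counts and comprised all 3 libraries of the ileal, ceco-colonic, inguinal, super cervical, deep cervical and mediastinal sites and of spleen, plus 1 jejunal library. The other 14 libraries (duodenal, liver, celiac and iliac nodes, and 2 from jejunal node) held 221911 to 917912 counts, and between 39.0% and 85.6% of those fell on 3 features that carry ribosomal sequence. A count of 3 corresponded to 0.0434 to 2.57 CPM (counts scaled to a total of 1000000) in the deeper libraries and to 3.27 to 13.5 CPM in the shallow ones, a floor that allows for counting error alone, because PCR can copy a molecule. Siglec1 itself had a count in 17 of 36 pull-down libraries and stayed at or below 3.11 CPM in the deeper ones, whereas Marco, another receptor of sinus macrophages, had counts in 36 of 36. The labels do not say that libraries came from separate animals, so the p-values measure only the spread between these libraries. In RNA pulled down from a node or spleen, fewer cells of a type and less RNA per cell cannot be told apart.

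The promoter windows of 4 members are printed because these genes moved in different ways across the sites: Fos, Junb, Nr4a1 and Dusp1. Each runs from 250 bases before to 50 bases after the start of the gene in RefSeq on GRCm38.p6 and is written 5′ to 3′ along the gene. They lie at chr12:85473640-85473939 on the plus strand (Fos), chr8:84978699-84978998 on the minus strand (Junb), chr15:101266596-101266895 on the plus strand (Nr4a1) and chr17:26508423-26508722 on the minus strand (Dusp1). Capitals mark TGACG, the core of the site that CREB and ATF proteins bind, or its reverse complement CGTCA, and in Dusp1 the whole palindrome TGACGTCA.
Fos: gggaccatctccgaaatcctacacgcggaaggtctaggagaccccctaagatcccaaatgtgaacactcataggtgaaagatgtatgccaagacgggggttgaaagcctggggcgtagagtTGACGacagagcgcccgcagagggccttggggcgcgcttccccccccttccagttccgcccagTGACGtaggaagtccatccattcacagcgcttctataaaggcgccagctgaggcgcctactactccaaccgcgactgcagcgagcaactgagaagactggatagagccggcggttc
Junb: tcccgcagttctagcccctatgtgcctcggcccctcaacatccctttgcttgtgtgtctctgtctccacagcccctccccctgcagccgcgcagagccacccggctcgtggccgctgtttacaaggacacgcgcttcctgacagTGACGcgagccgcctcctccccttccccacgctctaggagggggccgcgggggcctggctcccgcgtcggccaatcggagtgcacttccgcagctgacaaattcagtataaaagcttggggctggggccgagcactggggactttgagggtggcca
Nr4a1: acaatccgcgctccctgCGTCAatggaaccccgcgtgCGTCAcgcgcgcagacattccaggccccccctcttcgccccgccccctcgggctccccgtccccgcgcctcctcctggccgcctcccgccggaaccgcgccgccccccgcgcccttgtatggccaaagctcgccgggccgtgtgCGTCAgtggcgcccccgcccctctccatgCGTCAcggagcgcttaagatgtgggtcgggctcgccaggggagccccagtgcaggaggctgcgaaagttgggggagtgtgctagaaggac
Dusp1: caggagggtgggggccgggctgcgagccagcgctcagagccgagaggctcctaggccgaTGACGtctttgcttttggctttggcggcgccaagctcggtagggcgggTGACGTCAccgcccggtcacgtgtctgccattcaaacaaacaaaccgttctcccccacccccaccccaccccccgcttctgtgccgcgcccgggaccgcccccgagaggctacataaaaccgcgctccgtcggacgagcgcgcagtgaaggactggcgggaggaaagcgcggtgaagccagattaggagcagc

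Of the 10 members, 8 had a window in the RefSeq table (all but Egr1 and Ier2), and 6 of those 8 held TGACG on either strand, as did 20.8% of 32851 windows of the same length. Nr4a1 held 4 matches, Dusp1 3 (of which 2 overlap within its palindrome), Fos 2, and Junb, Fosb and Atf3 1 each, while the Jun and Klf6 windows held none. TGACGTCA was present in 1 member window, that of Dusp1, and in 1.79% of all windows. The AP-1 motif TGANTCA was in 0 of the 8 and in 7.81% of all windows. A match describes the letters of a window, and no binding was measured.

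Across the 6 node sites with 3 deeper libraries each, the members did not move as a block. Klf6, Jun and Dusp1 were highest in deep cervical node, Egr1 and Nr4a1 had their highest mean in mediastinal node, Junb and Ier2 were spread over all 6 sites, and Fos and Fosb followed a pattern of their own. In edgeR's quasi-likelihood F test for any difference among the 6 sites, 6 of 10 members passed a Benjamini-Hochberg adjusted p of 0.05 (Jun, Klf6, Dusp1, Egr1, Atf3 and Fosb), beside 56.8% of the 19702 genes tested, a share close to that of the members. With each site set against the mean of the other 5, deep cervical node had 3 members higher and 0 lower, where 20.7% of all genes were higher and 34.6% changed either way. Mediastinal node had 5 members higher and 0 lower, where 24.2% of all genes were higher and 42.4% changed either way. These 6 comparisons share their libraries. Levels below are CPM scaled by trimmed-mean (TMM) factors, given as mean ± SD over 3 libraries, and differences are log2 fold changes ± standard error from the same fit. No level is compared between genes, since counts were not divided by length.

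**Figure D1:**
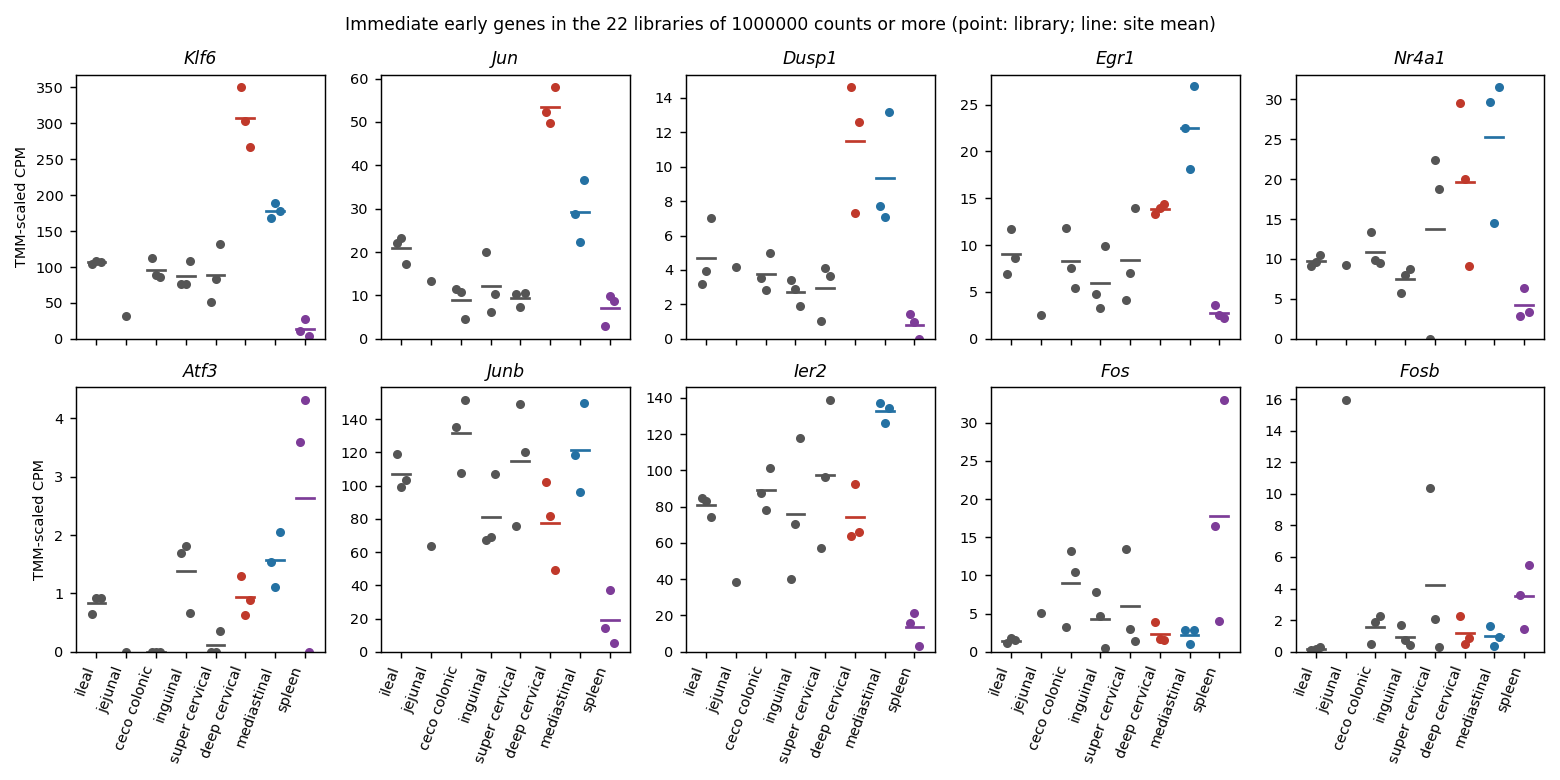
Level of each of the 10 immediate early genes in the 22 libraries of 1000000 counts or more, by site (TMM-scaled CPM on a linear axis starting at 0, 1 point a library, lines at site means, jejunal node with 1 library). Klf6 and Jun in the 3 deep cervical libraries stand above every other library, and Klf6, Junb and Ier2 in spleen stand below every node library.

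Among the AP-1 subunits, the dimerising transcription factors of the Fos and Jun families, Jun had the smallest p in the F test among the nodes (edgeR adjusted p = 3.60e-05). Its deep cervical libraries held 52.3, 49.7 and 58.2 CPM. Those of mediastinal node held 28.9, 22.3 and 36.7 CPM, and those of ileal node 22, 23.2 and 17.3 CPM. The other 3 sites lay between 4.52 and 20.0 CPM, so the deep cervical libraries overlapped no other site, while mediastinal and ileal libraries overlapped each other. Jun was 1.89 ± 0.29 log2 units higher in deep cervical node than in the mean of the other 5 (edgeR adjusted p = 7.19e-06) and 0.85 ± 0.30 higher in mediastinal node (edgeR adjusted p = 0.0251). The mediastinal call was lost without mediastinal replicate 1 (adjusted p = 0.0717) or replicate 3 (adjusted p = 0.198). In the order of site means, deep cervical (53.4 ± 4.31 CPM), mediastinal (29.3 ± 7.18 CPM), ileal (20.8 ± 3.13 CPM), inguinal (12.2 ± 7.12 CPM), super cervical (9.43 ± 1.80 CPM) and ceco-colonic (8.99 ± 3.89 CPM), no 2 neighbours passed the test against each other (adjusted p from 0.167 to 1).

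Junb, the Jun relative that often opposes Jun within AP-1 dimers, showed no such order. Its node libraries ran from 49.0 to 152 CPM with a median of 105 CPM, and the site means from 77.7 ± 26.9 CPM in deep cervical node to 132 ± 22.3 CPM in ceco-colonic node. The 3 ceco-colonic libraries (135, 108 and 152 CPM) lay just above all deep cervical and inguinal ones, the other sites overlapped each other, and the F test among them did not pass (edgeR adjusted p = 0.505). In deep cervical node, where Jun was highest, Junb held 102, 81.6 and 49.0 CPM, the lowest site mean.

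Fos, the partner of Jun in the classical AP-1 dimer, was low in the nodes. The ileal libraries held 1.13, 1.78 and 1.48 CPM, the mediastinal ones 2.91, 0.967 and 2.80 CPM, and the deep cervical ones 3.90, 1.71 and 1.47 CPM. Libraries of the other 3 sites spread further, with 3.28, 13.2 and 10.4 CPM in ceco-colonic node, 13.5, 2.94 and 1.43 CPM in super cervical node, and 7.81, 4.70 and 0.511 CPM in inguinal node. The ceco-colonic libraries lay above every ileal, mediastinal and deep cervical library but for deep cervical replicate 1, and the F test among the 6 sites gave edgeR adjusted p = 0.0938. No pair of neighbouring sites differed. The test passed at adjusted p = 0.0229 without inguinal replicate 3 and at adjusted p = 0.0490 without super cervical replicate 1.

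Fosb, a Fos relative that is induced with it, ran from 0.122 to 10.4 CPM in the 18 node libraries, with the extremes in ileal node (0.122, 0.185 and 0.305 CPM) and super cervical node (10.4, 2.06 and 0.268 CPM). The 3 super cervical libraries thus covered nearly the whole range. Its F test passed at edgeR adjusted p = 0.0420, and this call was lost without super cervical replicate 1 (adjusted p = 0.104), and in 17 of 30 alternatives in all.

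Of the other transcription factors, Egr1, the zinc finger protein that growth factor signals induce through the serum response factor, was highest in mediastinal node with 22.4, 18.1 and 27.0 CPM. The deep cervical libraries followed with 13.3, 14.0 and 14.4 CPM, and the other 4 sites ran from 3.25 to 14.0 CPM. The mediastinal libraries overlapped no other site. The difference was 1.31 ± 0.30 log2 units in mediastinal node (edgeR adjusted p = 0.00129) and 0.48 ± 0.33 in deep cervical node (edgeR adjusted p = 0.270). Egr1 in mediastinal node passed in each of the 30 alternatives, while its F test among the 6 sites was lost without mediastinal replicate 3 (adjusted p = 0.0543).

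Klf6, a Krüppel-like zinc finger factor induced by injury and hypoxia, held 351, 303 and 267 CPM in the deep cervical libraries. The mediastinal libraries held 168, 190 and 178 CPM. The ileal libraries were close together at 104, 108 and 107 CPM, and ceco-colonic, super cervical and inguinal libraries ran from 51.9 to 132 CPM. Deep cervical and mediastinal libraries each formed a range of their own above all others. Klf6 was 1.51 ± 0.30 log2 units higher in deep cervical node than in the other 5 (edgeR adjusted p = 0.000211), whereas its 0.57 ± 0.31 in mediastinal node did not pass (edgeR adjusted p = 0.139). The comparison with the other 5 includes deep cervical node, and the direct pair of deep cervical and mediastinal node gave adjusted p = 0.236.

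Nr4a1, an orphan nuclear receptor that marks recent antigen receptor and inflammatory signals, had its highest mean in mediastinal node, with 29.6, 14.5 and 31.5 CPM. Deep cervical node held 29.6, 20.1 and 9.14 CPM and super cervical node 0, 22.4 and 18.8 CPM. The ileal, ceco-colonic and inguinal libraries ran from 5.77 to 13.4 CPM and lay below all mediastinal ones. The mediastinal difference of 1.09 ± 0.39 log2 units passed (edgeR adjusted p = 0.0248) but not without mediastinal replicate 1 (adjusted p = 0.114) or replicate 3 (adjusted p = 0.162). Its F test among the 6 sites gave edgeR adjusted p = 0.0607, and adjusted p = 0.00572 without super cervical replicate 1, the library at 0.

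Atf3, a stress-induced member of the ATF/CREB family, was detected unevenly. Its deposited counts were 120.7, 61.6 and 198.7 in mediastinal node and 16, 40.1 and 18.2 in ileal node, but 20.4 or fewer in each library of the other 4 node sites. Mediastinal (41240156 to 69139450 counts) and ileal libraries (18811172 to 31849079) were also deeper than those of the other 4 sites (16823454 at most). It had 0 counts in 7 of the 22 deeper libraries, among them all 3 ceco-colonic libraries and 2 of 3 super cervical ones. A count of 3 corresponded to 0.715, 1.26 and 1.07 CPM in the ceco-colonic libraries and to 2.34 and 0.852 CPM in those 2 super cervical ones. These floors lay within or above the range of the ileal and deep cervical values below. The mediastinal libraries held 1.54, 1.11 and 2.06 CPM, the inguinal ones 1.70, 1.81 and 0.665 CPM, the deep cervical ones 1.30, 0.622 and 0.892 CPM and the ileal ones 0.648, 0.926 and 0.916 CPM. Atf3 passed the F test (edgeR adjusted p = 0.0128) and was called higher in mediastinal node (edgeR adjusted p = 0.00447). No fold is given, because the comparison group includes a site at 0, which also enters the p-value. In single pairs mediastinal node did not differ from ileal (edgeR adjusted p = 0.330), inguinal (0.728) or deep cervical node (0.507).

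Ier2, a small nuclear protein of the immediate early response, held 137, 126 and 135 CPM in mediastinal node. The other 5 sites ran from 40.0 CPM in an inguinal library to 139 CPM in a super cervical one, with site means from 74.1 ± 15.8 CPM (deep cervical) to 97.5 ± 41.0 CPM (super cervical). The mediastinal libraries lay within the range of the super cervical ones. The mediastinal difference was 0.67 ± 0.32 log2 units (edgeR adjusted p = 0.0902), and the F test among the sites gave edgeR adjusted p = 0.442.

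Dusp1 encodes the phosphatase that inactivates p38, JNK and ERK and so ends the signal that induces it. It held 14.6, 7.31 and 12.6 CPM in deep cervical node and 7.75, 7.09 and 13.2 CPM in mediastinal node. The other 4 sites ran from 1.04 to 7.02 CPM, so both of these sites lay above all of them, if only just, and overlapped each other. The difference was 1.42 ± 0.34 log2 units in deep cervical node (edgeR adjusted p = 0.00169) and 1.07 ± 0.33 in mediastinal node (edgeR adjusted p = 0.0109, and 0.187 without mediastinal replicate 3).

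**Figure D2:**
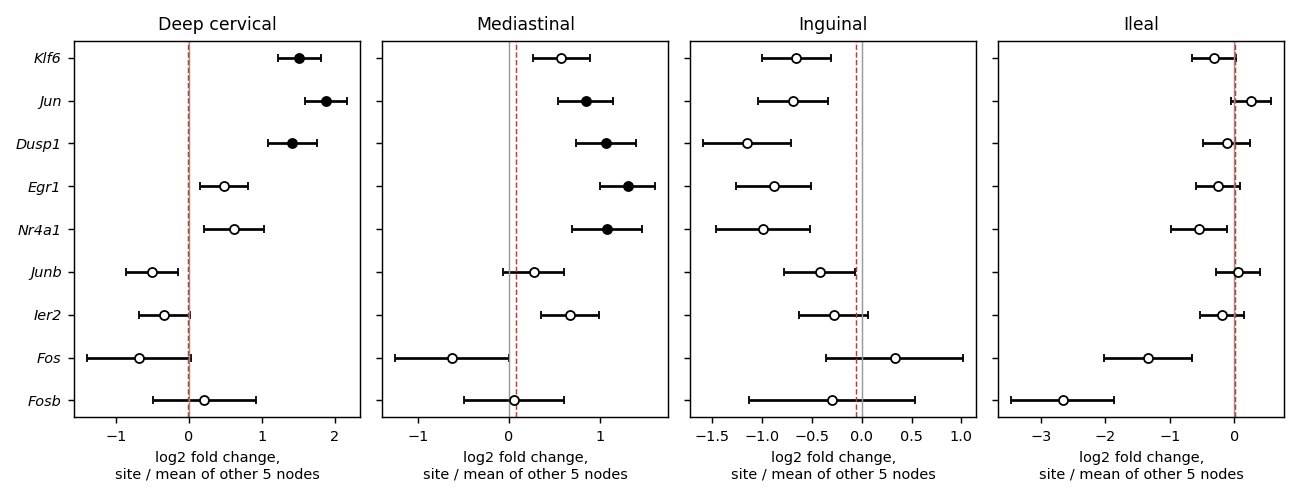
Log2 fold change of 9 members (Atf3 left out) in 4 node sites, each against the mean of the other 5 node sites (points, with bars of 1 standard error; filled where the edgeR adjusted p was under 0.05; dashed line, median of all genes; the panels differ in scale). Klf6, Jun and Dusp1 are filled in deep cervical node, and Jun, Dusp1, Egr1 and Nr4a1 in mediastinal node, while none is filled in inguinal or ileal node.

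Over the 15 pairs of node sites, members passed 29 of 150 tests (19.3%), where 18.4% of all gene tests passed. Deep cervical node was the higher site in 14 of these, mediastinal node in 14 and super cervical node in 1 (Fosb against ileal node), while over all gene calls the higher site was deep cervical in 26.6%, mediastinal in 26.1% and another site in 47.4%. In single pairs between 0.107% and 46.9% of all genes passed. Jun and Dusp1 passed in 7 pairs each, Egr1 and Klf6 in 5 each, Atf3 in 3, Fosb and Nr4a1 in 1 each, and Fos, Junb and Ier2 in 0. The pairs share libraries and are not independent of each other. The pair of deep cervical and mediastinal node gave no member call, with 14.7% of all genes called.

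The remaining 4 sites gave 0 member calls in edgeR's quasi-likelihood test, where 2.18% of genes passed in ileal, 3.7% in ceco-colonic, 17.6% in inguinal and 7.08% in super cervical node. At an unadjusted p under 0.05 there were 1 (ileal), 3 (ceco-colonic), 4 (inguinal) and 2 (super cervical) members. DESeq2 called 1, 1, 4 and 1 in the same order, and limma voom 0, 0, 1 and 0. The 4 that DESeq2 called in inguinal node were Egr1, Klf6, Nr4a1 and Dusp1, all lower there, and voom called Dusp1 alone. By edgeR the inguinal differences were -1.15 ± 0.44 for Dusp1 (adjusted p = 0.0651) and -0.89 ± 0.37 log2 units for Egr1 (adjusted p = 0.0923).

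Markers of other cells moved with the deep cervical values. All 11 striated muscle genes were higher in deep cervical node, with summed levels of 7383, 4118 and 188 CPM in replicates 1, 2 and 3, against 23.9 to 54.2 CPM in the ileal, ceco-colonic, inguinal and super cervical libraries. Of 10 adipocyte genes 10 were higher (4546 to 13198 CPM summed, against 150 to 4393 CPM at those 4 sites), as were 7 of 7 erythroid genes (4902 to 6446 CPM against 142 to 371 CPM) and 8 of 10 epithelial and gland genes (3616 to 15593 CPM against 6.04 to 3795 CPM). Of 10 blood endothelial genes 7 were higher and 1 lower, whereas 13 of 13 T cell genes and 10 of 12 B cell genes were lower. Of all genes, 20.7% were higher and 13.9% lower in deep cervical node. Replicate 3, with the lowest muscle sum and the highest gland and adipocyte sums, held the highest Jun (58.2 CPM) and the lowest Klf6 (267 CPM) of the site. Leaving out any 1 of the 22 libraries left 3 members called in deep cervical node, and the part of these cells in the result was not tested.

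Mediastinal node differed in other markers. There, 12 of 15 tested macrophage genes were higher (5286 to 8273 CPM summed, against 1532 to 9510 CPM at the 4 sites), as were 9 of 12 B cell, 7 of 13 T cell, 8 of 12 fibroblast and 5 of 10 blood endothelial genes, with 1 endothelial gene lower. The macrophage sums lay inside the range of the 4 sites, and so did those of blood endothelium (269 to 276 CPM against 184 to 372 CPM). Sums lay above those sites for B cell (3046 to 3490 CPM against 1647 to 2697 CPM) and fibroblast genes (2424 to 2555 CPM against 838 to 2242 CPM). They did so too for lymphatic endothelium with 4 of 12 genes higher (1136 to 1285 CPM against 184 to 817 CPM) and erythroid genes with 5 of 7 higher (1275 to 1345 CPM against 142 to 371 CPM). The same held for striated muscle with 1 of 11 higher and 1 lower (119.8 to 237 CPM against 23.9 to 54.2 CPM) and neutrophil genes with 2 of 7 tested higher and 1 lower (49.2 to 233 CPM against 2.83 to 31.8 CPM). Of all genes, 24.2% were higher and 18.1% lower in mediastinal node. The lymphatic and neutrophil counts were near the higher share, and the muscle count was below it. The 3 mediastinal libraries were also the deepest of the series, at 41240156 to 69139450 counts. Over the 22 deeper libraries the level of the 8 members other than Fos and Fosb was related to the log2 total with r between 0.42 and 0.72, libraries of a site sharing both depth and tissue. The part of depth and of cell makeup in the mediastinal result was not tested.

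Single libraries and scaling changed some of these counts. Without mediastinal replicate 3, 2 members (Egr1 and Atf3) were called in mediastinal node, and without spleen replicate 3, which enters the shared spread and scaling, 7 were. Mediastinal node had 7 members higher in place of 5 with DESeq2 size factors or plain totals, where Klf6 and Ier2 passed as well. Plain totals moved the median of all genes in that comparison from 0.08 to 0.46 log2 units, and the higher share of called genes from 57.2% to 74.2%. For deep cervical node the 3 members were called under each scaling, the median of all genes moved from -0.01 to 0.20 (DESeq2 size factors) or 0.23 (plain totals), and the higher share of called genes from 59.9% to 70.5% or 71.7%.

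Spleen was set against the mean of the 6 node sites. Of the 10 members, 9 passed the test, beside 57.1% of all genes. The 7 that were higher in nodes (31.4% of all genes were) comprised Klf6, Ier2, Dusp1, Junb, Egr1, Nr4a1 and Jun, and the 2 that were lower in nodes (25.7% of all genes were) were Fos and Atf3. The median log2 difference was 1.73 over the members and 0.27 over all genes.

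Klf6 in spleen held 10.8, 27.7 and 4.40 CPM, Junb 14.4, 37.4 and 5.50 CPM, and Ier2 15.8, 21.4 and 3.30 CPM. Each of the 3 genes lay below every one of the 18 node libraries, whose lowest values were 51.9 CPM for Klf6, 49.0 CPM for Junb and 40.0 CPM for Ier2. The nodes were higher by 3.04 ± 0.42 log2 units for Klf6 (edgeR adjusted p = 1.42e-06), 2.63 ± 0.43 for Ier2 (1.08e-05) and 2.34 ± 0.42 for Junb (3.76e-05). These were the members that passed in all 6 pairs of a node site with spleen (43.9% of gene tests over the 6 pairs passed), also for the site nearest to spleen in level (adjusted p = 0.000425 for Klf6, 0.000145 for Ier2 and 0.00103 for Junb). Without spleen replicate 2, the spleen library with the highest values, the differences of Klf6 and Junb became 3.99 and 3.30, and without spleen replicate 3 that of Junb became 1.74.

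Dusp1 in spleen held 1.44, 0.959 and 0 CPM and Egr1 3.59, 2.56 and 2.20 CPM. Dusp1 overlapped the nodes in 1 super cervical library and Egr1 in 1 inguinal library. Both passed, with 2.45 ± 0.60 log2 units for Dusp1 (edgeR adjusted p = 0.00108) and 1.93 ± 0.47 for Egr1 (edgeR adjusted p = 0.00110), and both passed in 5 of 6 pairs with a node site. Jun (1.26 ± 0.39, edgeR adjusted p = 0.00800) and Nr4a1 (1.53 ± 0.54, edgeR adjusted p = 0.0173) passed in 3 of 6 pairs each and depended on single libraries. Jun did not differ from spleen in ceco-colonic (edgeR adjusted p = 0.690), super cervical (0.644) or inguinal node (0.298). Nr4a1 did not in ileal (0.153), ceco-colonic (0.141) or inguinal node (0.447). Jun was lost without spleen replicate 1 (adjusted p = 0.178), and Nr4a1, at 2.12 without spleen replicate 2, was lost without spleen replicate 1 (adjusted p = 0.143), without spleen replicate 3 (adjusted p = 0.109) and with limma voom (adjusted p = 0.1).

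Fos went the other way, with 16.5, 4.0 and 33 CPM in spleen and a node range of 0.511 to 13.5 CPM. The 2 high spleen libraries stood above every node library, and the third lay inside the node range. The nodes were lower by -2.37 ± 0.60 log2 units (edgeR adjusted p = 0.00196), by -2.96 without spleen replicate 2 and by -1.71 without spleen replicate 3 (adjusted p = 0.0463). Fos passed in 3 of 6 pairs of a node site with spleen. It did not pass for ceco-colonic (edgeR adjusted p = 0.427), super cervical (0.126) or inguinal node (0.0930). Fosb in spleen held 3.59, 1.44 and 5.50 CPM within the node range (-1.66 ± 0.75, edgeR adjusted p = 0.0610), and it passed in 11 of 30 alternatives, among them DESeq2 size factors (adjusted p = 0.0371), DESeq2 (0.0122) and limma voom (0.0388). Atf3 held 3.59, 4.32 and 0 CPM, so that 2 spleen libraries were above the node range of 0 to 2.06 CPM and 1 at its lower end, and it passed at edgeR adjusted p = 0.000535, with no fold given for the reason above. Atf3 passed in 3 of 6 pairs of a node site with spleen. It did not pass for mediastinal (edgeR adjusted p = 0.232), inguinal (0.249) or deep cervical node (0.0514).

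**Figure D3:**
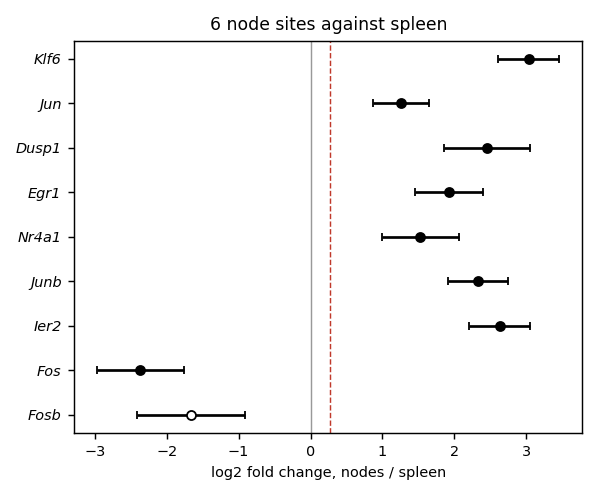
Log2 fold change of 9 members (Atf3 left out) between the mean of 6 node sites and spleen (positive, higher in nodes; bars of 1 standard error; filled where the edgeR adjusted p was under 0.05; dashed line, median of all genes at 0.27). The 7 members to the right of 0 run from 1.26 for Jun to 3.04 for Klf6, and Fos and Fosb lie to the left.

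Plain totals shifted the median of all genes in the spleen comparison from 0.27 to 1.05 log2 units and the higher share of called genes from 55.0% to 75.3%, without changing the direction of any member. Spleen libraries carried 10665 to 72356 CPM of 7 erythroid genes, all 7 lower in nodes, against 142 to 6446 CPM in node libraries, and 5.55% to 42.7% of their counts fell on the features with ribosomal sequence. Of the spleen totals, 2434063 and 1165387 counts exceeded 2 and 0 of the 18 node libraries, and 9619717 counts exceeded 10. The part of each of these in the spleen result was not tested.

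The count of Fos hardly followed the depth of the library, except in the deepest libraries of the series. Those were ileal replicate 2 (31849079 counts) with 77.1 counts of Fos, and mediastinal replicates 1, 2 and 3 with 228.8, 53.6 and 270.5. In spleen the deposited counts of Fos were 22.6, 25 and 30.2, so the CPM order of the 3 libraries was the reverse of the order of their totals. Over the 14 shallow libraries Fos counts ran from 2.57 to 30.4 with a median of 11.5, and over the 22 deeper ones from 6.2 to 270.5 with a median of 22.9. The ratio of these medians was 0.501, while the ratio of the median totals (367155 and 4520870 counts) was 0.0812. Among 13152 genes with a median of 10 counts or more in the deeper libraries, the median ratio was 0.00481 and 99.8% had a lower ratio than Fos, leaving 31 genes, Fos included, at its ratio or above. The isotype control, with 5002926 counts, held 7.68 counts of Fos.

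Fosb shared the pattern, with a ratio of medians of 0.330 (2.20 and 6.67 counts). The other members lost far more: Junb fell from a median of 516 counts in the deeper libraries to 1.47 in the shallow ones, Klf6 from 763 to 4.12, Ier2 from 338 to 0.974, Jun from 89.9 to 3.83, Egr1 from 44.0 to 1.35 and Dusp1 from 25.8 to 1.88, while the shallow medians of Nr4a1 and Atf3 were 0. Among the deeper libraries, the 8 with 10000000 counts or more held 0.511 to 2.91 CPM of Fos, and the other 14 held 1.43 to 33 CPM. Over all 22, the correlation of level with log2 total was -0.74 for Fos and -0.67 for Fosb, and positive for each of the other 8. The 2 spleen libraries with the highest Fos were thus shallower than most node libraries, while the third, with Fos inside the node range, was not, and the part of depth in the Fos result was not tested. The spleen comparison was also restricted to libraries of 2000000 counts or more, a limit chosen after the data were seen. That limit leaves out spleen replicate 3, jejunal replicate 2 and super cervical replicate 1, the node library with the highest Fos (13.5 CPM). The restricted comparison gave -1.70 log2 units for Fos (edgeR adjusted p = 0.0346).

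**Figure D4:**
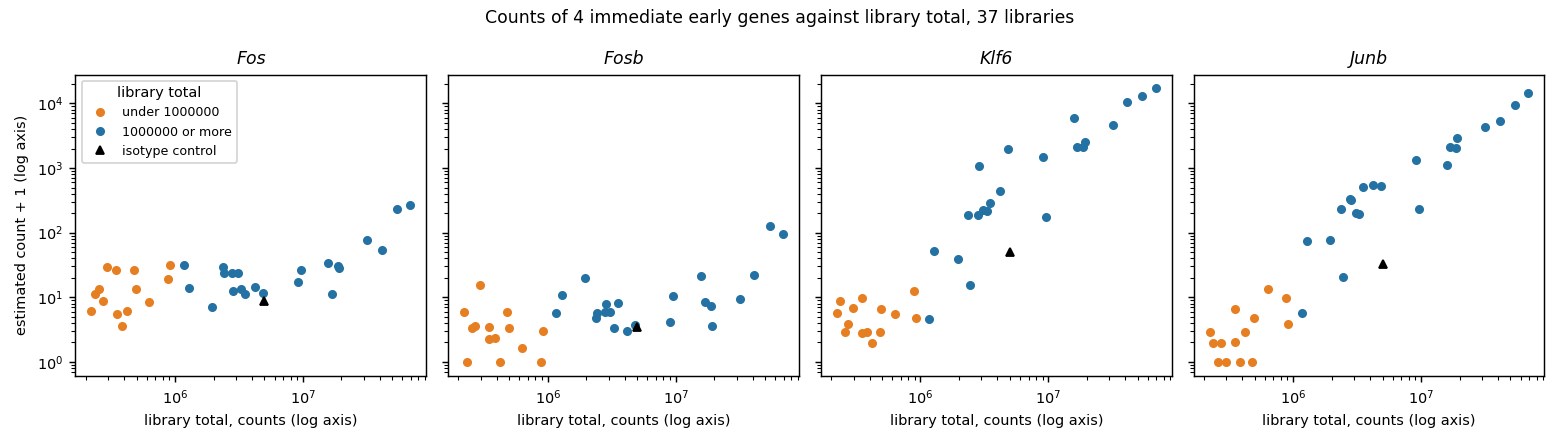
Deposited count plus 1 of Fos, Fosb, Klf6 and Junb against the total of each of the 37 libraries (both axes logarithmic; orange, 14 libraries under 1000000 counts; blue, 22 libraries of 1000000 or more; triangle, isotype control). Klf6 and Junb climb steeply with the total, whereas Fos stays between 2.57 and 32.5 counts in all libraries but the 4 deepest. Those held 77.1 counts (ileal replicate 2) and 228.8, 53.6 and 270.5 counts (mediastinal replicates 1, 2 and 3).

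The shallow sites could be compared for 1 member only. Among duodenal, jejunal, liver, celiac and iliac nodes, Fos was the single member that passed the filter on low counts, and its F test gave edgeR adjusted p = 0.299, with 6.99% of 2777 genes called and an unadjusted p of 0.0926. The other 9 members were filtered out there, and Atf3 had 0 counts in 14 of 14 shallow libraries, which allows up to 3.27 to 13.5 CPM. With all 36 libraries and 11 node sites in 1 fit, 9 of 9 members tested passed (Atf3 was filtered out), beside 84.9% of 16294 genes, and shallow sites and depth cannot be told apart in that fit. Without the libraries of replicate number 1 or 2, Egr1 (adjusted p = 0.0825 and 0.194) and Dusp1 (0.136 and 0.153) no longer passed it.

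The isotype control, a pull-down with an antibody that does not recognise the tag, had 1 library and allows no test. Rounded counts were 50 for Klf6, 32 for Junb, 30 for Jun, 25 for Ier2, 8 for Fos, 5 for Nr4a1, 2 each for Fosb and Egr1, and 0 for Atf3 and Dusp1. On plain totals Klf6 was at 9.99 CPM in the control (95% exact Poisson interval 7.42 to 13.2, counting error only) and at 10.1, 19.5 and 7.80 CPM in the 3 jejunal pull-downs. Junb was at 6.40 CPM (4.38 to 9.03) in the control and at 8.08, 39.0 and 0 CPM in the pull-downs. The control value of each gene thus lay inside the range of the pull-downs. The low end of that range came from replicates 1 and 3, with 5 and 2 counts of Klf6 and 4 and 0 of Junb. In jejunal replicate 2 the intervals of Klf6 (13.8 to 26.7 CPM) and Junb (30.7 to 48.8 CPM) on plain totals lay above those of the control. With TMM factors over the 4 libraries, replicate 2 held 16.7 CPM of Klf6 and 33.4 CPM of Junb, against 14.4 and 9.24 CPM in the control. On plain totals Fos was at 1.60 CPM (0.690 to 3.15) in the control and at 26.2, 3.08 and 50.7 CPM in the pull-downs, above the control in 3 of 3. The interval of the deepest pull-down (6 counts, 1.13 to 6.69 CPM) overlapped that of the control. The other pull-downs had 13 counts each in libraries under 1000000 counts against 8 in the control's 5002926. The part of this depth gap in the Fos difference was not tested. Jun and Fosb were also above the control in 3 of 3. Jun was at 5.996 CPM in the control and at 12.1, 8.20 and 15.6 CPM in the pull-downs, with overlapping intervals. Fosb was at 0.3998 CPM (0.0484 to 1.44) in the control and at 4.04, 9.74 and 7.80 CPM in the pull-downs. Its interval in jejunal replicate 2 (19 counts, 5.86 to 15.2 CPM) lay above that of the control. Those of replicates 1 and 3, with 2 counts each, overlapped it.

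The mean of the jejunal pull-downs over the control was 16.7 for Fos, 3.18 for Nr4a1, 2.45 for Junb, 2.0 for Jun, 1.98 for Ier2 and 1.25 for Klf6. With TMM factors over the 4 libraries these became 10.1, 1.86, 1.49, 1.22, 1.21 and 0.762. Without jejunal replicate 2, the deepest of the 3, Junb (0.631), Ier2 (0.606) and Klf6 (0.896) were below the control, from 4, 3 and 5 counts in replicate 1 and 0, 0 and 2 in replicate 3.

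Among 51 tested genes of the wider early response, 37 passed the F test among the 6 sites, where 56.8% of all genes did. The shares of all genes that were higher were 24.2% in mediastinal and 20.7% in deep cervical node. In mediastinal node 29 were higher and 2 lower, with a median of 0.95 log2 units against 0.08 over all genes, although the summed level of the list (4543 to 5081 CPM) lay near or below the lower end of the ileal, ceco-colonic, inguinal and super cervical libraries (4742 to 8528 CPM). In deep cervical node 15 were higher and 6 lower (median 0.25, against -0.01 over all genes). Inguinal node had 1 higher and 7 lower (12.6% and 5.07% of all genes), and ceco-colonic node 0 and 3 (2.86% and 0.837%). Ileal and super cervical node had 1 higher each (1.55% and 5.93% of all genes), near or below that background. Against spleen 30 were higher in nodes and 1 lower (31.4% and 25.7% of all genes).

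The 4 with the smallest p among sites were Dusp8, Ccn2, Rhob and Arl4d, all higher in deep cervical node. Ccn2, the matricellular protein CTGF that is induced by mechanical and TGF-beta signals, stood at 53.1 ± 22.5 CPM in deep cervical node, 12.1 ± 3.57 CPM in mediastinal node and between 1.44 and 3.34 CPM at the other 4 sites (4.04 ± 0.31 log2 units in deep cervical node, edgeR adjusted p = 1.77e-11). Arl4d, a small GTPase of the ARF family, reached 172 ± 31.4 CPM in deep cervical node and 12.4 to 25.6 CPM at the other 5 sites (3.28 ± 0.25, edgeR adjusted p = 1.48e-11). Rhob was called at both sites (82.7 ± 29.0 CPM in deep cervical and 51.5 ± 13.0 CPM in mediastinal node), whereas Dusp8, a phosphatase of JNK and p38, was called higher in deep cervical node (17.2 ± 5.15 CPM) and not in mediastinal node (2.66 ± 0.760 CPM, edgeR adjusted p = 0.638).

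Of 27 genes of the signalling upstream (MAP kinases, Ras and Raf, serum response factor partners, CREB family), 13 passed among sites (56.8% of all genes did, a larger share), with 9 higher and 2 lower in mediastinal node and 6 higher and 1 lower in deep cervical node, where 24.2% and 20.7% of all genes were higher. The deep cervical count is near that background. The ERK kinase Map2k1 stood at 25.7 ± 5.15 CPM in mediastinal node and 2.72 to 9.99 CPM at the other 5 sites (2.33 ± 0.39 log2 units, edgeR adjusted p = 7.44e-05), and Mrtfa, the actin-regulated coactivator of the serum response factor, at 25.4 ± 5.03 CPM and 5.77 to 10.1 CPM (1.71 ± 0.30, edgeR adjusted p = 0.000122). Crem, a CREB relative with both activating and repressing forms, was higher in deep cervical (17.8 ± 4.38 CPM) and mediastinal node (13.9 ± 9.76 CPM) than the 2.15 to 6.57 CPM of the other site means. Elk3, an Ets factor that can repress serum response elements, was lower in mediastinal node at 27.6 ± 3.98 CPM (-0.93 ± 0.33, edgeR adjusted p = 0.0261).

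Heat shock genes, which handling and stress also induce, gave 12 of 15 among sites (56.8% of all genes), with 10 higher and 3 lower in mediastinal node, 5 higher and 1 lower in deep cervical node and 0 higher and 6 lower in inguinal node (of all genes, 24.2% were higher in mediastinal and 20.7% in deep cervical node, and 5.07% lower in inguinal node). Their summed level in mediastinal node, 6373 to 10029.5 CPM, was in the lower part of or below the range of the 4 sites (7806 to 29240.1 CPM). Hspb1, a small chaperone, was at 85.7 ± 30.3 CPM in deep cervical node and 53.0 ± 35.9 CPM in mediastinal node, against 3.97 to 7.16 CPM at the other 4 sites. Hspa1a and Hspa1b, the near-identical inducible Hsp70 genes whose counts the quantification may have split between them, were also called higher at both sites. Hsph1, an Hsp70 exchange factor, was higher in mediastinal node (106 ± 68.6 CPM, 2.34 ± 0.30 log2 units, edgeR adjusted p = 3.85e-06) and not in deep cervical node (24.9 ± 10.1 CPM, edgeR adjusted p = 0.765).

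As a description over the 22 deeper libraries, which share site and depth, Junb and Ier2 were alike with r = 0.94 on log2 CPM (Spearman 0.81), and Egr1 and Klf6 with r = 0.82 (Spearman 0.94). The 28 pairs among the 8 members other than Fos and Fosb ranged from r = -0.09 to 0.94 with a median of 0.58. The 16 pairs of Fos or Fosb with another member were all negative, from -0.69 to -0.31, and Fos and Fosb were alike with r = 0.76. Outside the list, the genes most like the mean of the members were Selenbp1 (r = 0.92), Ero1b (0.90), Bhlhe40 (0.89), Pink1 (0.89), Zhx2 (0.89) and Csad (0.89). The genes most like Fos were Gm37116 (r = 0.89), Atg7 (0.87), Neu1 (0.85), Gm42569 (0.85) and Gm39288 (0.85). Neither order was stable, since 0 of the first 6 remained with Spearman's rank correlation or with site means, and 2 and 0 of the second 5.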

How the data were processed

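RNA from tagged ribosomes was measured in 37 libraries. The deposited table holds estimated counts per gene for 56351 genes, with unequal library totals. The authors' tools, per the submitters' processing notes, include kallisto, limma and edgeR (no version or role is stated), and builds GRCm39 and mm10 are both named, so no coordinates are given except those of the RefSeq windows on GRCm38.p6. Strand use in counting is not given in the sources used here, which leaves genes that overlap another uncertain. Counts were rounded and tested with edgeR 4.0.16 in R 4.3.3 (filterByExpr with minimum count 10 and minimum total 15, TMM, robust quasi-likelihood fit, 1 mean per site), with Benjamini-Hochberg adjustment over all genes tested and a threshold of 0.05. The principal model used the 22 libraries of 1000000 counts or more, in which jejunal replicate 2 kept its own mean and entered no contrast. DESeq2 1.42.0 and limma 3.58.1 (voom) were alternatives. The edgeR fit of the deeper libraries was tested on simulated counts, with changes in mediastinal node alone. Only genes well above the floor were changed there, so members near the floor were not covered. No 2 replicates of a site agreed within sampling noise (chi-square per degree of freedom from 3.79 to 140 over 36 pairs). The members, the lists and the rule for named genes (all members, the 4 genes of each list with the smallest p among sites, and the genes most alike over libraries) were chosen with earlier results of these data known.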

Additional observations from a re-analysis of the deposited data

How the results depend on the processing

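No member that passed a test changed direction in any alternative run. Of 2479 single values recomputed, 2387 kept their side of the threshold, 31 lost it and 61 gained it. In inguinal node the 0 member calls became 1 with DESeq2 size factors, plain totals or limma voom, 4 with DESeq2 and 3 with libraries of 2000000 counts or more. In ileal and ceco-colonic node they became 1 each with no filter or DESeq2, and in ceco-colonic node 2 at the higher depth limit. In super cervical node they became 1 with DESeq2. Called genes moved from 430 to 744 (no filter), 715 (DESeq2), 837 (voom) and 654 (higher depth limit) in ileal node, from 729 to 326 (plain totals), 1515 (no filter), 1782 (DESeq2) and 1499 (higher depth limit) in ceco-colonic node, from 3477 to 5259 (DESeq2) in inguinal node, from 1395 to 849 (plain totals), 2279 (no filter), 788 (voom) and 521 (higher depth limit) in super cervical node, and from 194 to 542 (plain totals), 672 (no filter) and 456 (DESeq2) among the shallow sites. The higher share of called genes in ceco-colonic node went from 77.4% to 35.3% with plain totals and 59.7% with DESeq2 size factors, and in inguinal node from 71.3% to 61.2% with the latter. The causes were not tested. The Jun ratio of jejunal pull-down over isotype control went from 2.0 to 1.22 with TMM. Of the genes most like the members, 0 and 0 of 6 were shared with the lists by Spearman's rank correlation and by site means, and for Fos 2 and 0 of 5.

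Leaving out each library in turn gave 4 to 7 members and 8793 to 12494 genes among the 6 sites, 7 to 10 and 9716 to 11605 against spleen, 3 to 3 and 3716 to 7753 in deep cervical, 2 to 7 and 4763 to 9552 in mediastinal, 0 to 1 and 153 to 560 in ileal, 0 to 1 and 25 to 1733 in ceco-colonic, 0 to 2 and 666 to 4687 in inguinal, and 0 to 1 and 304 to 2501 in super cervical node. Over the 21 pairs it gave 58 to 74 member calls and 88403 to 115643 gene calls. Leaving out each replicate number gave 7 to 9 members and 10151 to 12514 genes among 11 sites, and 0 to 0 members and 0 to 325 genes among the shallow sites. Without 1 jejunal library the ratios over the control were 9.17 to 24.1 (Fos), 1.69 to 2.31 (Jun), 0.631 to 3.68 (Junb), 0.896 to 1.48 (Klf6), 1.95 to 4.77 (Nr4a1) and 0.606 to 2.97 (Ier2).

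Replicate numbers are not stated to pair the libraries. The deviations of same-numbered libraries from their site means correlated with r from -0.31 to 0.43 (median 0.02) over 63 pairs, 16 of them over 0.1, and 12 of 21 libraries correlated best with their own number. With the replicate number as a block 6 members passed among the 6 sites (11306 genes) and 10 against spleen (11095 genes), where Fosb passed as well (adjusted p = 0.0395). It changed 1 of 90 single calls. In the 14 shallow libraries 9 of the 10 members were removed by the filter on low counts, so differences in them were not tested.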
